A study of Mus musculus with 9 samples.

Results

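The genes described here are 9 genes of protein folding and quality control in the endoplasmic reticulum (ER), together with the transcription factor gene Xbp1. They were taken by symbol, as a set named with earlier results of these data known: Hspa5, Hsp90b1, Dnajb9, Sdf2l1, Pdia4, Pdia6, Herpud1, Creld2, Manf and Xbp1. All 10 were found among the 24493 genes of the deposited table, and all 10 were among the 13843 genes whose average over the 9 samples reached 1 TPM, the genes tested. TPM is a transcript abundance, corrected for transcript length and scaled to a fixed total in each library. RNA came from mouse pancreatic tumor cells of 1 clone, 6419c5, of the strain C57BL/6, described as late stage and taken from tumors implanted subcutaneously. There were 3 samples of wild type (WT), 3 of a knockout of the deubiquitinase gene Usp22 labelled Usp22-KOA and 3 of a knockout labelled Usp22-KOB. All groups carry the same clone name, so they model 1 tumor line, and the sources used here give no age, sex or treatment of the hosts. The sources also do not say whether the samples of a group came from separate animals. The p-values set a difference between groups against the spread of samples within groups, and that spread may be only technical variation.

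Proteins that enter the secretory pathway fold in the lumen of the ER. When unfolded proteins accumulate there, the membrane sensors IRE1 (gene Ern1), ATF6 and PERK (gene Eif2ak3) start the unfolded protein response. IRE1 cuts a short intron out of the Xbp1 mRNA, which changes the reading frame and yields the active factor XBP1s, while ATF6 is cut by Golgi proteases and its released part enters the nucleus. XBP1s and ATF6 induce chaperones, disulfide isomerases and the machinery that returns misfolded proteins to the cytosol for degradation (ER-associated degradation). Secretory cells such as pancreatic acinar cells and plasma cells are known for high levels of these genes.

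The promoters are shown because ATF6 and XBP1s are known to act through the ER stress response elements. Whether a match in a member goes with its change, described below, was not tested. Promoter sequences from RefSeq (GRCm38.p6), covering 250 bases before to 50 after a gene's start, matched 9 of the 10 members, and Manf had no entry. Both strands were searched for ERSE (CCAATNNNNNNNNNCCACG), ERSE-II (ATTGGNCCACG) and the UPRE (TGACGTGG), of which the first and second share the letters CCACG. ERSE matched in 4 of the 9 members, against 0.119% of all 32851 windows, and ERSE-II in 1 of the 9, against 0.0365%. The windows cover 27025 genes, so a share of windows is not a share of genes. The UPRE matched in 0 of the 9 members and in 0.676% of windows. A match describes letters only and is not evidence of a bound factor. The members belong to the ER stress response for which these elements are named, so matches in them are not an independent result. Capitals mark the match, the lines read 5′ to 3′ on the gene's strand, and where the match lies on the opposite strand the capitals are its reverse complement. Positions are counted from the RefSeq start, which can differ from the GENCODE start of the gene coordinates given further on. Hspa5 (chr2:34772020-34772048, plus strand) matched 65 to 47 bases before its RefSeq start, a stretch that lies inside the longer GENCODE gene. Hsp90b1 (minus strand) matched 212 to 194 bases before its start (chr10:86705613-86705681) and, on the opposite strand, 107 to 89 bases before it (chr10:86705510-86705576). Pdia6 (chr12:17266466-17266534, plus strand) matched 98 to 80 bases, Creld2 (chr15:88819495-88819563, plus strand, opposite-strand match) 126 to 108 bases, and Herpud1 (chr8:94386352-94386412, plus strand, ERSE-II) 52 to 42 bases before the start.
Hspa5 ERSE: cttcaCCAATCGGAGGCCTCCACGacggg
Hsp90b1 ERSE, far: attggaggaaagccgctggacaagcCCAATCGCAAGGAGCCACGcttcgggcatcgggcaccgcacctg
Hsp90b1 ERSE, near: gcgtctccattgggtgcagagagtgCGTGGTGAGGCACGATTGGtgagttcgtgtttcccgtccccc
Pdia6 ERSE: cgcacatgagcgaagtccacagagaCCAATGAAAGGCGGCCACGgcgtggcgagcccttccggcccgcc
Creld2 ERSE: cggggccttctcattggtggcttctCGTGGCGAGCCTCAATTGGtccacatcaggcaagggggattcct
Herpud1 ERSE-II: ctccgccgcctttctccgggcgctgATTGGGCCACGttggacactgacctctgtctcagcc

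The Xbp1 mRNA is shown because the gene's level and its activity are separate quantities. In GENCODE M21 all 3 protein-coding transcripts of Xbp1 share a pair of CNGCAG letters 26 bases apart, which flank the IRE1 intron. The 26 bases taken here start after the upstream CNGCAG and end with the downstream one. They are bases 818 to 843 of the coding transcript read here. Its reading frame is 267 codons long with these 26 bases and 371 codons long without them. Capitals mark these 26 bases, and the exact cut sites of IRE1, which can differ from their ends, were not located here.
Xbp1 intron: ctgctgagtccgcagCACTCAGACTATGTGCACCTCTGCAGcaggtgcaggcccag
The deposited values are 1 sum per gene, so spliced and unspliced Xbp1 were not told apart here, and every Xbp1 value below is the total mRNA.

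Each library summed to 1000000 TPM, and 13037 to 13940 genes per library reached 1 TPM. The depth of the libraries cannot be read from TPM and is unknown, and precision rests on the 3 samples per group. Usp22, the targeted gene, stood at 54.5 to 56.4 TPM in WT, against 8.46 to 10.1 TPM in Usp22-KOA and 11.8 to 14.9 TPM in Usp22-KOB (exact two-sided permutation test of both knockouts against WT, p = 0.0119, the smallest its 84 splits allow). The 14 epithelial and ductal markers, which define the labelled cell type, summed to 9280 to 9760 TPM in WT, 6820 to 7670 in Usp22-KOA and 7030 to 8600 in Usp22-KOB. Of these 14, 11 fell and 1 rose in Usp22-KOA (median -1.96 on the log2 scale) and 10 fell in Usp22-KOB (median -1.38), so most fell by more than the sums did. Pan-leukocyte markers (15 genes) summed to 382 to 677, 530 to 1070 and 910 to 1910 TPM, and macrophage markers (16 genes) to 2210 to 3360, 1670 to 3580 and 5740 to 10000 TPM in the same order. Fibroblast markers (13 genes) summed to 613 to 1090, 255 to 314 and 930 to 1420 TPM, endothelial markers (14 genes) to 74.0 to 103, 15.7 to 25.3 and 60.3 to 91.4 TPM, and mast cell markers (10 genes) to 152 to 186, 1220 to 2540 and 97.8 to 132 TPM. All 10 mast cell markers rose in Usp22-KOA, and in Usp22-KOB 5 rose and 1 fell, although their sum was lower there than in WT. A rise or fall counted here is a call as defined below. Of all genes tested, 29.4% rose and 26.9% fell in Usp22-KOA, and 18.7% rose and 18.4% fell in Usp22-KOB. Marker sums of other cell types thus moved with the groups, their part in the results below was not tested, and in such bulk RNA fewer cells of a type and less RNA per cell cannot be told apart. In addition, 5 of the 10 members overlap an annotated gene on the opposite strand (Hsp90b1, Pdia6, Dnajb9, Herpud1 and Manf), and the sources used here do not state whether the quantification used strand.

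Over the 10 genes, Usp22-KOA differed from WT in 6 and Usp22-KOB in 3, and no mean of a called gene differed from WT by more than 1.67 times. In Usp22-KOA, 5 of 10 rose, Hspa5, Hsp90b1, Pdia4, Sdf2l1 and Herpud1, where 29.4% of all genes tested rose, and 1 fell, Dnajb9, where 26.9% of all genes fell. In Usp22-KOB, Sdf2l1 and Herpud1 rose (2 of 10, against 18.7% of all genes) and Xbp1 fell (1 of 10, against 18.4%). A call here is a Benjamini-Hochberg adjusted p under 0.05 by limma on log2(TPM + 1), adjusted over all genes tested. The members' median difference from WT on the log2 scale was 0.22 for Usp22-KOA and -0.05 for Usp22-KOB, beside 0.02 and -0.01 over all genes tested. With quantile normalization the members' medians were 0.12 and -0.04, beside 0.03 and -0.01. The lower and upper quartiles of all genes tested were -0.37 and 0.36 for Usp22-KOA, and -0.23 and 0.23 for Usp22-KOB. Both member medians therefore lay within the middle range of all genes. In Usp22-KOA the share of members that rose stood above that of all genes and the share that fell stood below it, in Usp22-KOB the higher count was close to the share of all genes, and no test of the list as a whole was made. Samples of Usp22-KOA and WT did not overlap in 5 members that were higher (34.2% of all genes tested) and 1 that was lower (31.1%). For Usp22-KOB and WT this held for 2 higher (25%) and 2 lower members (24%). Both comparisons use the same 3 WT samples.

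**Figure D1:**
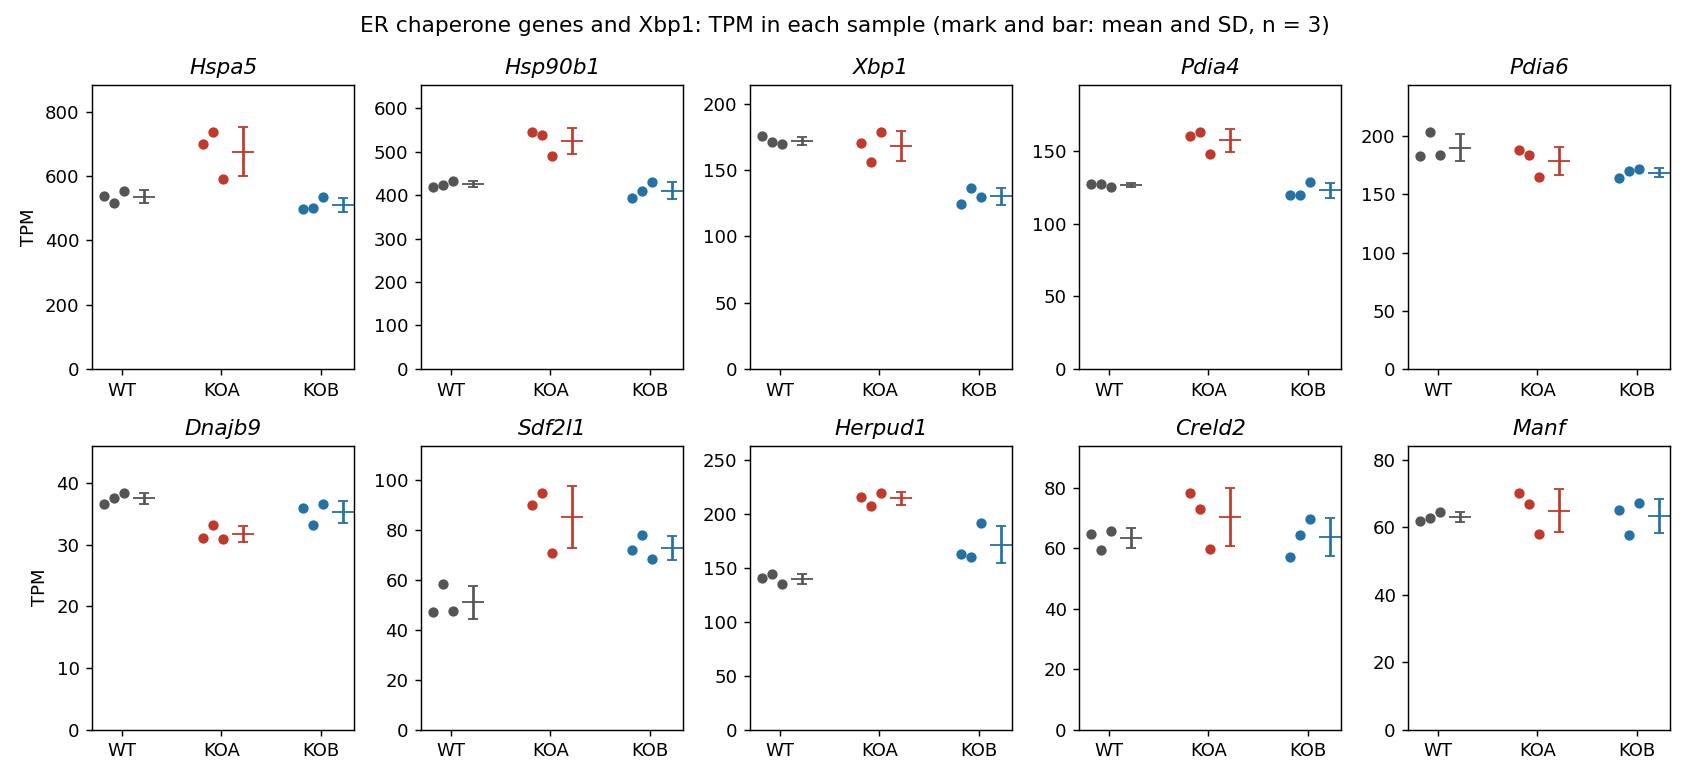
TPM (vertical axes, from 0) of the 10 genes in each of the 9 samples, with the group mean and SD (n = 3) beside the points. Hspa5, Hsp90b1 and Pdia4 lie higher in the 3 Usp22-KOA samples than in the other 6, Xbp1 lies lower in the 3 Usp22-KOB samples than in the other 6, and Sdf2l1 and Herpud1 lie above WT in both knockouts.

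Hspa5 encodes BiP, the HSP70 chaperone of the ER that binds unfolded chains and also holds the stress sensors inactive. It was the highest of the 10 genes in each group on the TPM scale. It stood at 539, 515 and 553 TPM in WT. The Usp22-KOA samples had 700.4, 736 and 591 TPM, and the Usp22-KOB samples 497, 499 and 536 TPM. All 3 Usp22-KOA samples lay above all WT and all Usp22-KOB samples, while WT and Usp22-KOB overlapped. The means were 536 ± 19.2, 676 ± 75.8 and 511 ± 22.03 TPM (SD, n = 3 each). Hspa5 rose 1.26 times in Usp22-KOA (log2 difference 0.33 ± 0.08 SE, limma adjusted p = 0.00619) and did not pass in Usp22-KOB (-0.07 ± 0.08, adjusted p = 0.524). The gene lies on chromosome 2, 34771970 to 34777547, in GRCm38, as annotated in GENCODE M21.

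Hsp90b1 encodes GRP94, the HSP90 chaperone of the ER, which folds integrins and Toll-like receptors (chromosome 10, 86690209 to 86705509). Its values were 419, 424 and 433 TPM in WT, 545, 538 and 489.5 TPM in Usp22-KOA and 393, 409 and 430.1 TPM in Usp22-KOB. As for Hspa5, the Usp22-KOA samples stood apart above the other 6, which overlapped. Hsp90b1 rose 1.23 times in Usp22-KOA (log2 0.30 ± 0.05, limma adjusted p = 0.00124) and did not pass in Usp22-KOB (-0.05 ± 0.05, adjusted p = 0.482).

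The members that assist BiP went different ways. Sdf2l1, an ER protein that works with BiP and its DNAJ co-chaperones (chromosome 16, 17130138 to 17132383), stood at 47.1, 58.4 and 47.3 TPM in WT, 89.8, 94.7 and 70.9 TPM in Usp22-KOA and 71.9, 77.8 and 68.1 TPM in Usp22-KOB. All 6 knockout samples lay above the 3 WT samples, and the knockouts overlapped each other. Sdf2l1 rose 1.67 times in Usp22-KOA (log2 0.73 ± 0.12, limma adjusted p = 8.2e-04) and 1.42 times in Usp22-KOB (0.51 ± 0.12, adjusted p = 0.0110). Dnajb9 encodes ERdj4, a DNAJ co-chaperone of BiP and a known XBP1s target (chromosome 12, 44205559 to 44210326). It stood at 36.6, 37.6 and 38.4 TPM in WT, 31.1, 33.2 and 30.9 TPM in Usp22-KOA and 35.9, 33.2 and 36.6 TPM in Usp22-KOB. The Usp22-KOA samples lay below all WT samples, and WT and Usp22-KOB overlapped narrowly. Dnajb9 fell to 84.6% of WT in Usp22-KOA (log2 -0.24 ± 0.06, limma adjusted p = 0.00802), and its value in Usp22-KOB was 94.0% of WT, which did not pass (-0.09 ± 0.06, adjusted p = 0.277).

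Both disulfide isomerases of the set form and rearrange disulfide bonds in folding proteins. Pdia4, also called ERp72 (chromosome 6, 47796141 to 47813430), stood at 128, 127 and 125 TPM in WT, 161, 163 and 148 TPM in Usp22-KOA and 119.7, 120.1 and 129 TPM in Usp22-KOB. The Usp22-KOA samples were again above the other 6. Pdia4 rose 1.24 times in Usp22-KOA (log2 0.31 ± 0.05, limma adjusted p = 8.2e-04) and did not pass in Usp22-KOB (-0.04 ± 0.05, adjusted p = 0.549). Pdia6, also called P5 and known to restrain IRE1 (chromosome 12, 17266545 to 17284770), ranged from 183 to 203.5 TPM in WT, from 165 to 188 TPM in Usp22-KOA and 164 to 172 TPM in Usp22-KOB. It passed in neither knockout (log2 -0.09 ± 0.06, limma adjusted p = 0.260, and -0.17 ± 0.06, adjusted p = 0.0644), although its 3 Usp22-KOB samples lay below the 3 WT samples. With quantile normalization Pdia6 passed as lower in both (log2 -0.21, limma adjusted p = 0.0140, and -0.18, adjusted p = 0.0333), and without Usp22-KOA 3 it passed in Usp22-KOB (limma adjusted p = 0.0365).

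Herpud1 encodes an ER membrane protein that organises the ubiquitin ligase complex of ER-associated degradation (chromosome 8, 94386438 to 94395377). It stood at 140.5, 144 and 135 TPM in WT, 216, 208 and 219 TPM in Usp22-KOA and 163, 160.1 and 191 TPM in Usp22-KOB. The 3 groups did not overlap, with Usp22-KOA highest and WT lowest. Herpud1 rose 1.53 times in Usp22-KOA (log2 0.61 ± 0.07, limma adjusted p = 7.3e-05) and 1.23 times in Usp22-KOB (0.29 ± 0.07, adjusted p = 0.0110). Its means were 139.7 ± 4.64, 214 ± 5.97 and 171 ± 17.2 TPM.

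Creld2 and Manf encode secreted or ER-retained stress proteins, of which Manf binds BiP and is known to protect pancreatic beta cells. Creld2 (chromosome 15, 88819646 to 88826683) stood at 64.8, 59.6 and 65.6 TPM in WT, 78.4, 73.2 and 59.8 TPM in Usp22-KOA and 57.0, 64.6 and 69.7 TPM in Usp22-KOB. Manf (chromosome 9, 106838312 to 106891979) stood at 61.9, 62.6 and 64.6 TPM in WT, 70.1, 66.7 and 57.9 TPM in Usp22-KOA and 65.1, 57.7 and 67.1 TPM in Usp22-KOB. For both genes the 3 groups overlapped. Neither passed in Usp22-KOA (log2 0.14 ± 0.11 for Creld2, limma adjusted p = 0.286, and 0.04 ± 0.08 for Manf, adjusted p = 0.723) or in Usp22-KOB (0.01 ± 0.11 and 0.00 ± 0.08, adjusted p = 0.970 and 0.979). Creld2 passed in Usp22-KOA without Usp22-KOA 3 (log2 0.26, limma adjusted p = 0.0435), so 6 members then rose.

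Xbp1, the transcription factor gene of the set (chromosome 11, 5520659 to 5525893), stood at 176, 171 and 169.7 TPM in WT, 170.1, 156 and 179 TPM in Usp22-KOA and 124, 137 and 129 TPM in Usp22-KOB. WT and Usp22-KOA overlapped, and the 3 Usp22-KOB samples lay below the other 6. Xbp1 fell to 75.6% of WT in Usp22-KOB (log2 -0.40 ± 0.06, limma adjusted p = 0.00101) and held 97.8% in Usp22-KOA, which did not pass (-0.03 ± 0.06, adjusted p = 0.644). Its total mRNA therefore changed in the knockout in which Hspa5, Hsp90b1 and Pdia4 did not pass and Sdf2l1 and Herpud1 rose.

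The ratio of Hspa5 to Xbp1 within a sample, both in TPM, was 3.07, 3.01 and 3.26 in the WT samples, 4.12, 4.71 and 3.31 in those of Usp22-KOA, and 4.003, 3.65 and 4.14 in those of Usp22-KOB. All 6 knockout ratios lay above the WT ratios, from a higher Hspa5 in Usp22-KOA and a lower Xbp1 in Usp22-KOB. The 10 genes together took 1796 to 1815 TPM in WT, but 2011 to 2252 TPM in Usp22-KOA and 1690 to 1829 TPM in Usp22-KOB, of which Hspa5 and Hsp90b1 were the larger part.

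Setting Usp22-KOA directly against Usp22-KOB tested whether the knockouts differed. The WT means do not enter this difference, but the WT samples contribute to the estimate of spread behind its SE and p. Of the 10 genes, 5 were higher in Usp22-KOA, where 27.5% of all genes tested were, and 0 were lower by limma (1 at an unadjusted p under 0.05), where 24.2% of all genes were. The 5 were Hspa5 (676 ± 75.8 against 511 ± 22.03 TPM, log2 0.40 ± 0.08, limma adjusted p = 0.00270), Hsp90b1 (0.35 ± 0.05, adjusted p = 6.5e-04), Pdia4 (0.35 ± 0.05, adjusted p = 5.2e-04), Xbp1 (0.37 ± 0.06, adjusted p = 8.8e-04) and Herpud1 (0.32 ± 0.07, adjusted p = 0.00408). In each of these 5 the 3 Usp22-KOA samples lay above the 3 Usp22-KOB samples, as in 31.3% of all genes tested. Sdf2l1 did not pass (log2 0.22 ± 0.12, limma adjusted p = 0.165), and passed without Usp22-KOA 3 (0.34, adjusted p = 0.0279). Dnajb9 did not pass (-0.15 ± 0.06, limma adjusted p = 0.0649), although its 3 Usp22-KOA samples lay below the 3 Usp22-KOB samples. It passed as lower in Usp22-KOA with quantile normalization (adjusted p = 0.0248), after rescaling without the microRNA gene Mir6236 (adjusted p = 0.0482) and without Usp22-KOB 2 (adjusted p = 0.0466). Pdia6, Creld2 and Manf did not pass (limma adjusted p = 0.319, 0.319 and 0.759).

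**Figure D2:**
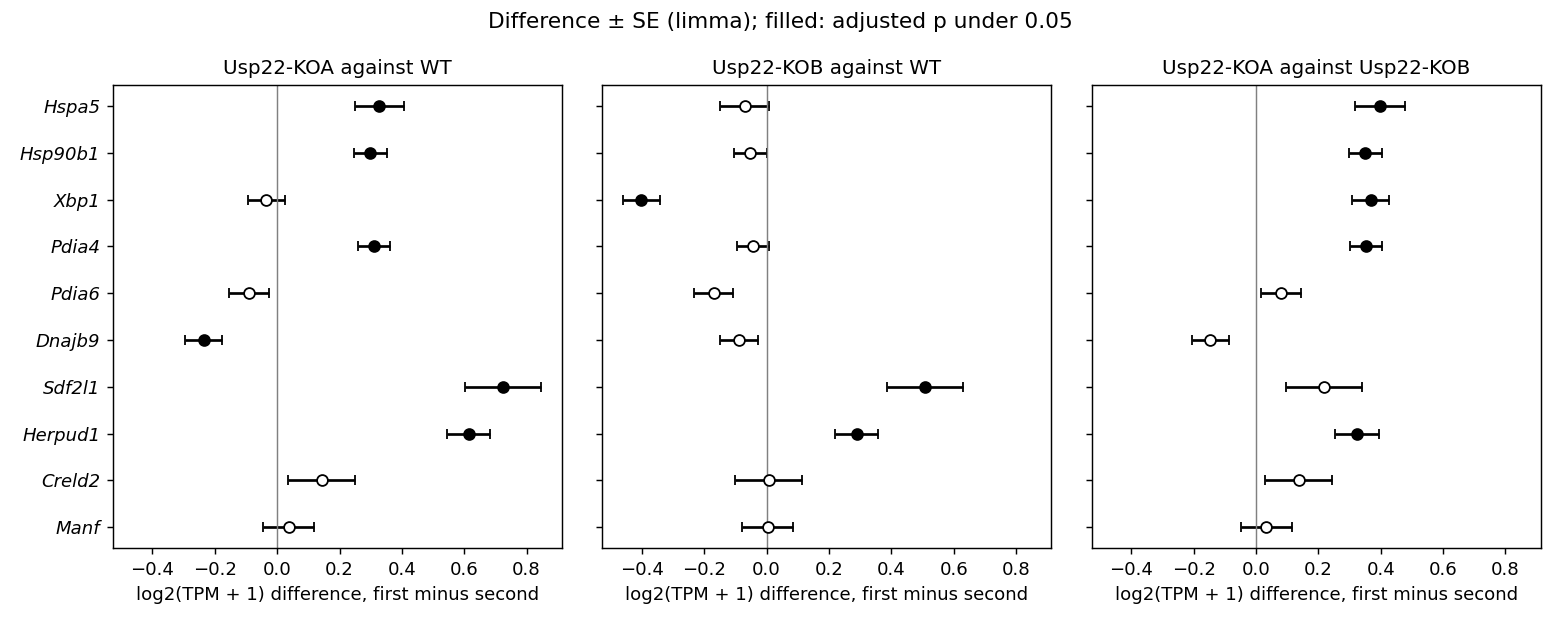
Difference of log2(TPM + 1) ± SE (horizontal axis) of each gene in 3 comparisons, with filled points for an adjusted p under 0.05 by limma. Hspa5, Hsp90b1 and Pdia4 are filled and positive for Usp22-KOA against WT and for Usp22-KOA against Usp22-KOB, and Xbp1 is filled and negative for Usp22-KOB against WT.

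When both knockouts were averaged and set against WT, 3 of the 10 genes rose (25.9% of all genes tested did) and 2 fell (24.1% did), and 1 knockout alone can set such a mean. Sdf2l1 and Herpud1 rose in the mean as in each knockout (log2 0.62 ± 0.11, limma adjusted p = 0.00123, and 0.45 ± 0.06, adjusted p = 2.9e-04). In these 2 of 10 members all 6 knockout samples lay above WT, as in 15% of all genes tested. The third, Pdia4 (0.13 ± 0.04, adjusted p = 0.0347), and the lower Dnajb9 (-0.16 ± 0.05, adjusted p = 0.0272) and Xbp1 (-0.22 ± 0.05, adjusted p = 0.00695) overlapped WT in at least 1 knockout. Hsp90b1 was just outside the threshold (0.12 ± 0.05, limma adjusted p = 0.0526). The call of Pdia4 ended without any of WT 1, WT 2, WT 3, Usp22-KOA 1 or Usp22-KOA 2 (limma adjusted p = 0.0691 to 0.106), with quantile normalization (0.0696), after rescaling without Mir6236 (0.0557), without a trend (0.0716) and with the 6 knockout samples as 1 group (0.430), and that of Dnajb9 without any of WT 1, WT 2, WT 3, Usp22-KOA 1 or Usp22-KOB 2 (0.0518 to 0.0956) and with the 6 knockout samples as 1 group (0.146). So treated, Xbp1 did not pass either (0.226). Without Usp22-KOA 3, Hspa5 and Hsp90b1 passed as well (0.0116 and 0.0163), which made 5 higher.

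Within Usp22-KOA the third sample stood lower for most of these genes. It was the lowest of its group for 8 of the 10 members, against 33.6% of all genes tested, and the highest for the other 2, Xbp1 and Herpud1. On the log2(TPM + 1) scale it lay below the Usp22-KOA mean by -0.19 for Hspa5, -0.25 for Sdf2l1, -0.22 for Creld2 and -0.16 for Manf, and above it by 0.09 for Xbp1 and 0.03 for Herpud1. The median of all genes tested in that sample was 0.01 from the group mean. In Usp22-KOB the third sample was the highest for 8 of 10 members, and the median of all genes there lay 0.08 above its group mean, so that shift was not particular to the members. Over the 9 samples, the deviations from the group means of Hsp90b1 followed those of Creld2 (Pearson r = 0.941), Pdia4 (0.877) and Hspa5 (0.872). The deviations of Xbp1 ran most strongly opposite to those of Dnajb9 (r = -0.850), Manf (-0.678) and Hspa5 (-0.652). Its correlation was weak with Creld2 (-0.189) and Herpud1 (0.143). These pairs, the weak ones aside, were named as the most extreme, and taking out the group means leaves fewer than 9 independent values. The correlations describe 9 libraries whose TPM share a fixed total, and no p is given.

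**Figure D3:**
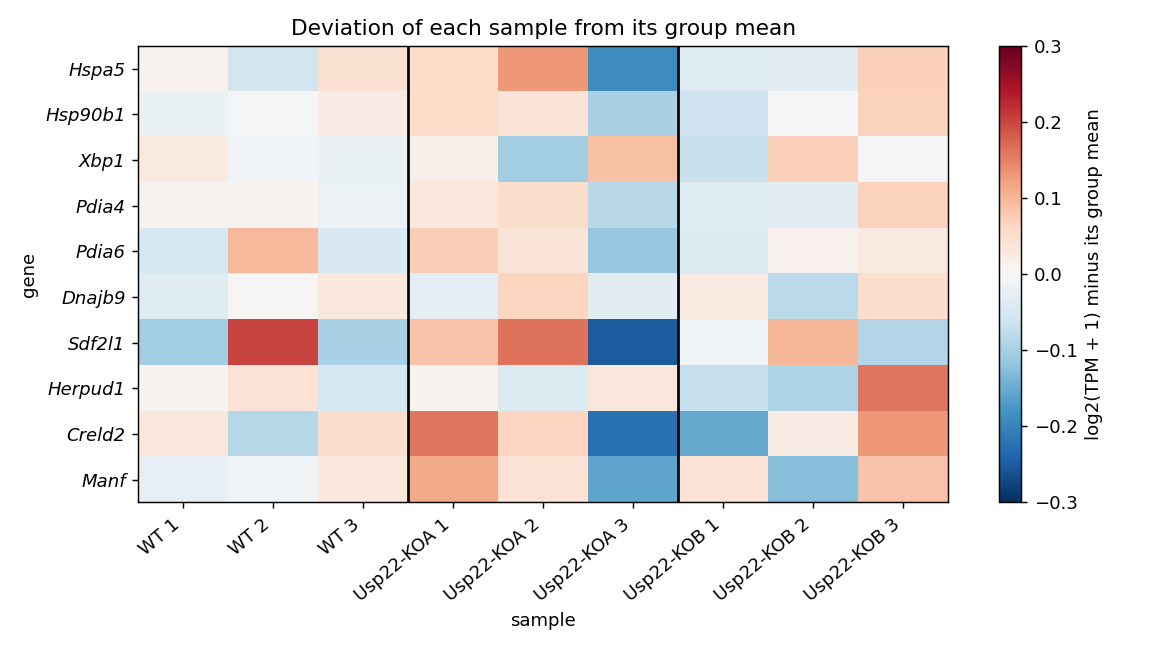
Deviation of each sample from its group mean in log2(TPM + 1) (colour) for the 10 genes (rows) in the 9 samples (columns). The column of Usp22-KOA 3 is blue for 8 genes and red for Xbp1 and Herpud1.

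The sensors that start the response were read from a list of 12 sensors, related factors and processing proteases. In Usp22-KOA 3 of the 12 rose and 7 fell, and in Usp22-KOB 1 rose and 4 fell, with medians of -0.33 and -0.23 on the log2 scale. For this and the lists that follow, the shares of all genes tested are 29.4% higher and 26.9% lower for Usp22-KOA, and 18.7% higher and 18.4% lower for Usp22-KOB. Ern1 stood at 18.6 ± 0.944 TPM in WT and 14.4 ± 0.976 in Usp22-KOA, where it fell (log2 -0.35 ± 0.11, limma adjusted p = 0.0186), and at 17.5 ± 2.67 in Usp22-KOB (-0.09 ± 0.11, adjusted p = 0.526). Atf6 fell in Usp22-KOA from 19.6 ± 0.723 to 14.6 ± 1.10 TPM (-0.40 ± 0.08, adjusted p = 0.00179) and stood at 19.2 ± 1.15 in Usp22-KOB (adjusted p = 0.811), and its difference between the knockouts also passed (-0.37 ± 0.08, adjusted p = 0.00330). Eif2ak3 passed only as lower in Usp22-KOB (-0.31 ± 0.10, adjusted p = 0.0380, and -0.14 ± 0.10, adjusted p = 0.272, in Usp22-KOA), while its difference between the knockouts did not pass (adjusted p = 0.179). Atf6b, which encodes a relative of ATF6, went the other way and rose in both knockouts, from 43.2 ± 1.83 TPM in WT to 70.6 ± 5.08 in Usp22-KOA (0.69 ± 0.07, adjusted p = 2.9e-05) and 53.4 ± 2.62 in Usp22-KOB (0.30 ± 0.07, adjusted p = 0.00850). These 4 genes were named for their role, after their values were seen.

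Ern2, the IRE1 of mucosal epithelia, fell from 12.4 TPM in WT to 1.76 in Usp22-KOA and 0.323 in Usp22-KOB (log2 -2.30 ± 0.20 and -3.34 ± 0.20, limma adjusted p = 1.3e-05 and 6.1e-06). Creb3l1 and Creb3l4, membrane-bound factors related to ATF6, fell in both knockouts, Creb3l1 from 25.4 to 5.12 and 16.4 TPM and Creb3l4 from 12.01 to 1.995 and 2.56 TPM. The protease gene Mbtps2, whose product cuts ATF6 in the membrane, rose in Usp22-KOA from 8.51 to 18 TPM (log2 0.997 ± 0.10, limma adjusted p = 3.7e-05) and did not pass in Usp22-KOB (0.12 ± 0.10, adjusted p = 0.372). Creb3 rose in Usp22-KOA (0.31 ± 0.06, adjusted p = 0.00134) and did not pass in Usp22-KOB (-0.06 ± 0.06, adjusted p = 0.460).

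Genes of ER-associated degradation other than Herpud1 rose in Usp22-KOA in 15 of 22 cases and fell in 1, with a median of 0.42 on the log2 scale beside 0.02 for all genes tested. In Usp22-KOB 7 rose and 1 fell, with a median of 0.14. Usp22-KOA was higher than Usp22-KOB in 18 of the 22 and lower in 1 (median 0.33), where 27.5% of all genes tested were higher and 24.2% lower. The ubiquitin-conjugating enzyme gene Ube2g2 went from 45.1 TPM in WT to 102 in Usp22-KOA and 62.9 in Usp22-KOB (log2 1.16 ± 0.06 and 0.47 ± 0.06, limma adjusted p = 5.7e-07 and 3.9e-04). The mannosidase-like gene Edem1, which marks glycoproteins for disposal, went from 25.8 to 48.1 and 37.3 TPM (0.88 ± 0.06 and 0.52 ± 0.06, adjusted p = 4.6e-06 and 3.7e-04). The lectin gene Os9 rose in Usp22-KOA, from 85.7 to 142.5 TPM (0.73 ± 0.06, adjusted p = 1.2e-05), and did not pass in Usp22-KOB (0.12 ± 0.06, adjusted p = 0.166). The single lower call in Usp22-KOA was lost without WT 2 or Usp22-KOA 2. The 7 higher calls in Usp22-KOB were 3 without WT 2 or without Usp22-KOB 2 and 4 without WT 3, and 11 or 12 with quantile normalization or median-of-ratios scaling.

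Other chaperones and folding enzymes of the ER followed the members in part. Of 26 tested, 12 rose and 3 fell in Usp22-KOA (median 0.14), and 5 rose and 6 fell in Usp22-KOB (median -0.00, which turns to 0.00 with quantile normalization and 0.01 with median-of-ratios scaling). The counts in Usp22-KOB were near the shares of all genes. Calr, the lectin chaperone calreticulin, stood at 804 TPM in WT, at 962.5 in Usp22-KOA and 662 in Usp22-KOB, and so rose in the first (log2 0.26 ± 0.04, limma adjusted p = 9.4e-04) and fell in the other (-0.28 ± 0.04, adjusted p = 0.00141). Dnajb11, the BiP co-chaperone ERdj3, rose in both, from 87.7 to 147.5 and 117 TPM (0.74 ± 0.06 and 0.40 ± 0.06, adjusted p = 1.1e-05 and 0.00116). Dnajc1 rose in Usp22-KOA from 13.7 to 23.1 TPM (0.71 ± 0.08, adjusted p = 6.4e-05) and stood at 12.99 TPM in Usp22-KOB. The prolyl isomerase gene Fkbp2 fell in both, from 211 to 135 and 185 TPM (-0.64 ± 0.05 and -0.19 ± 0.05, adjusted p = 4.9e-06 and 0.0130). The 3 lower calls in Usp22-KOA were 6 with quantile normalization, and the 6 lower calls in Usp22-KOB were 3 without WT 1.

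Of 26 genes of entry into the ER and of N-glycosylation, 10 fell, 2 rose and 14 did not pass in Usp22-KOA (median -0.06), and 14 fell and 2 rose in Usp22-KOB (median -0.16). Between the knockouts 9 were higher in Usp22-KOA and 3 lower, where 27.5% of all genes tested were higher and 24.2% lower. The median was 0.09, which turns to -0.01 with quantile normalization, and the 9 were 14 without Usp22-KOB 3. Ssr2 and Ost4, subunits of the translocon-associated complex and of oligosaccharyltransferase, fell in both, from 506 to 328 and 308 TPM and from 546 to 384 and 405 TPM (limma adjusted p at most 2.9e-04). Spcs2, a signal peptidase subunit, fell in Usp22-KOA from 85.9 to 55.0 TPM (log2 -0.64 ± 0.05, adjusted p = 7.5e-06) and stood at 85.8 TPM in Usp22-KOB. Rpn2, another oligosaccharyltransferase subunit, rose in Usp22-KOA from 205 to 269 TPM (0.39 ± 0.04, adjusted p = 6.4e-05). With quantile normalization 17 fell in Usp22-KOA. The 2 higher calls in Usp22-KOB became 0 without WT 1, WT 2, WT 3 or Usp22-KOB 1, and 1 without Usp22-KOA 2, Usp22-KOB 2 or Usp22-KOB 3.

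Of 23 genes of transport between ER and Golgi, 11 rose and 3 fell in Usp22-KOA (median 0.19), and 2 rose and 7 fell in Usp22-KOB (median -0.05). Surf4 and Mcfd2, which help export cargo from the ER, rose in Usp22-KOA (log2 0.55 ± 0.05 and 0.59 ± 0.05, limma adjusted p = 1.6e-05 and 2.0e-05), and in Usp22-KOB Mcfd2 rose (0.16 ± 0.05, adjusted p = 0.0424) while Surf4 did not pass (adjusted p = 0.502). Sec31a, of the COPII coat, rose in Usp22-KOA (0.20 ± 0.06, adjusted p = 0.0236) and fell in Usp22-KOB (-0.39 ± 0.06, adjusted p = 0.00143). Kdelr1, a receptor that returns escaped chaperones to the ER, fell in both, from 171 to 139 and 119.9 TPM (adjusted p = 8.3e-04 and 1.1e-04). The 11 higher calls in Usp22-KOA were 6 with quantile normalization, and in Usp22-KOB the 7 lower calls were 4 without WT 1 or Usp22-KOB 1 and the 2 higher calls 0 or 1 without any 1 library but Usp22-KOA 3.

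**Figure D4:**
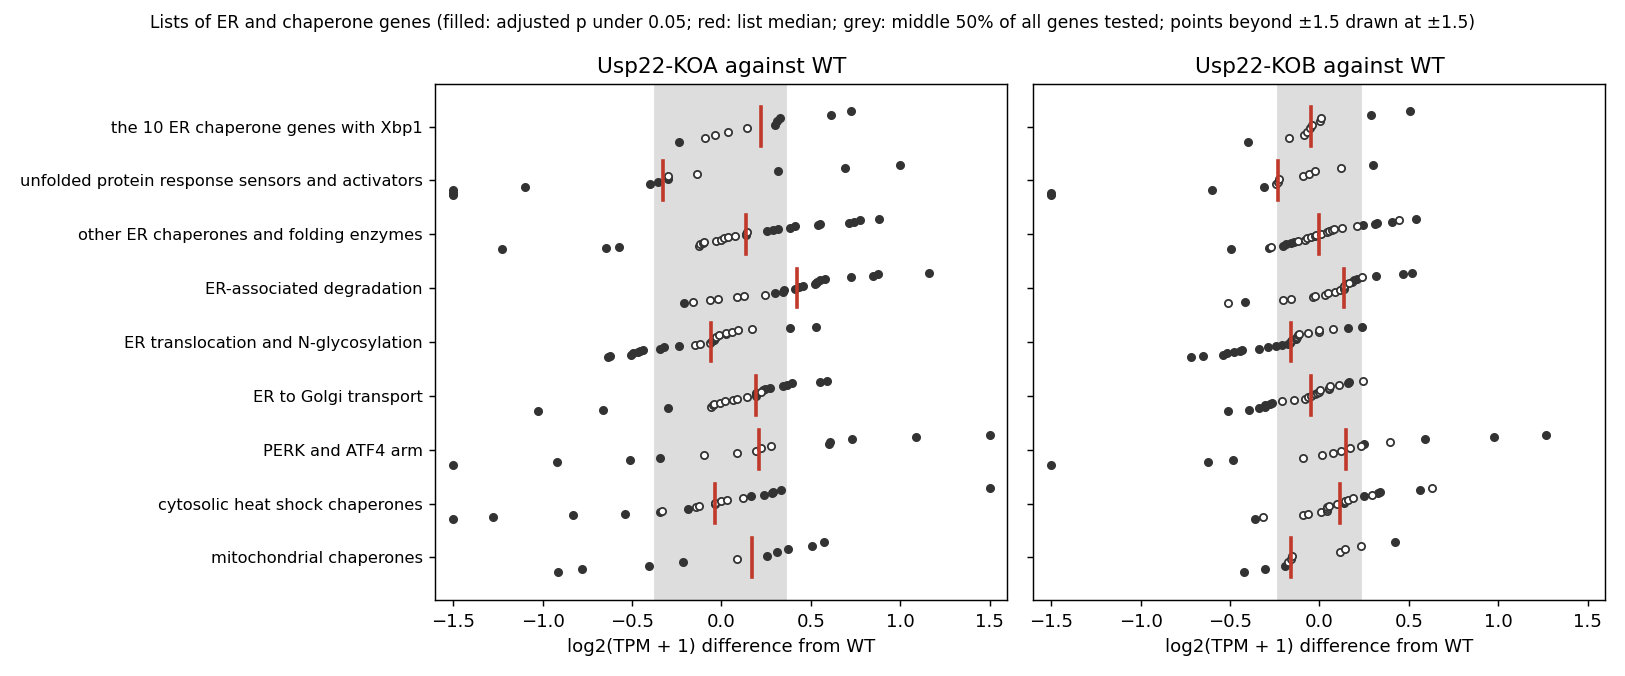
Difference of log2(TPM + 1) from WT (horizontal axis) of each tested gene in 9 lists (rows), for Usp22-KOA and Usp22-KOB, with list medians in red and the middle 50% of all genes tested in grey. The list of ER-associated degradation has its median at 0.42 in Usp22-KOA and 0.14 in Usp22-KOB, and the list of ER entry and glycosylation has its median below 0 in both.

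The arm of the response that runs through PERK and ATF4, and chaperones outside the ER, were read for comparison. In the PERK and ATF4 arm, 5 of 14 rose and 4 fell in Usp22-KOA, and 4 rose and 3 fell in Usp22-KOB. Atf4 itself went from 142.5 TPM in WT down to 112 in Usp22-KOA (log2 -0.34 ± 0.06, limma adjusted p = 0.00117) and up to 169 in Usp22-KOB (0.25 ± 0.06, adjusted p = 0.0124), while its target Asns rose in Usp22-KOA (1.53 ± 0.12, adjusted p = 7.2e-06) and did not pass in Usp22-KOB (0.17 ± 0.12, adjusted p = 0.292). Of 20 cytosolic heat shock chaperones, 6 rose and 6 fell in Usp22-KOA, and 5 rose and 1 fell in Usp22-KOB. Hspb8, a small heat shock protein gene, rose in Usp22-KOA from 1.21 to 66.9 TPM (4.95 ± 0.14, adjusted p = 4.1e-08), whereas Hspa1a, the inducible cytosolic HSP70, fell there from 36 to 14.1 TPM (-1.28 ± 0.16, adjusted p = 1.2e-04). Of 10 mitochondrial chaperones and proteases, 5 rose and 4 fell in Usp22-KOA and 1 rose and 3 fell in Usp22-KOB, and the chaperonin pair Hspd1 and Hspe1 fell in Usp22-KOA, from 283 to 164 and from 382 to 202 TPM (-0.78 ± 0.06 and -0.92 ± 0.08, adjusted p = 6.3e-06 and 1.4e-05). In Usp22-KOB the 1 lower call among cytosolic genes was 2 without Usp22-KOA 2, and the 1 higher call among mitochondrial genes was 2 without Usp22-KOA 3 or Usp22-KOB 1 and 3 with median-of-ratios scaling.

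Markers of the secretory cells known for these genes were read beside them. Of the 12 plasma and B cell markers, Sdc1, which epithelial cells also express, held most of the sum (309, 317 and 265 TPM on average in WT, Usp22-KOA and Usp22-KOB, of summed means of 325, 333 and 277 TPM). Jchain, the joining chain of secreted antibodies, lay between 3.36 and 13.5 TPM in WT, between 7.76 and 12.7 TPM in Usp22-KOA and 2.71 and 7.63 TPM in Usp22-KOB, so WT overlapped both knockouts and the knockouts did not overlap each other. Pax5, a defining B cell gene, was at most 0.287 TPM in any library, and Mzb1 was at most 1.86 TPM. Mzb1 lay between 0.817 and 1.86 TPM in Usp22-KOA, above its WT range of 0.111 to 0.623 TPM. Mean Prdm1 was 3.67 TPM for WT, 0.826 TPM for Usp22-KOA and 2.19 TPM for Usp22-KOB. Irf4 averaged 0.652, 0.769 and 1.86 TPM in the same order. By limma, 5 genes of this list were tested. Against WT, Usp22-KOA had 1 lower and 0 higher, while Usp22-KOB had 2 lower and 1 higher. Of 14 acinar markers, Cpb1, Cela2a, Cela3b and Ptf1a were listed at 0 in all 9 libraries, and the list summed to 45.3 to 56.0 TPM in WT, to 88.2 to 99.3 TPM in Usp22-KOA and 8.64 to 10.1 TPM in Usp22-KOB. Of the 4 acinar markers tested, 2 rose and 2 fell in Usp22-KOA and 2 fell in Usp22-KOB by limma, so the sum does not stand for the list. The gene with the most TPM was Cela1 in WT and Prss2 in Usp22-KOA, and the part of these cells in the results was not tested.

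Genes whose pattern over the 9 samples was most like that of Hspa5 or Xbp1 were taken from the 6157 genes averaging 20 TPM or more, by the Pearson correlation of log2(TPM + 1). For Hspa5 they were Grem1, a secreted antagonist of bone morphogenetic proteins (r = 0.985), the glycosyltransferase gene Gcnt2 (0.959) and Rap1gds1, which encodes a guanine nucleotide exchange factor for small GTPases (0.958). Grem1 stood at 19.9 ± 2.16 TPM in WT, at 36.9 ± 9.23 in Usp22-KOA and 18.9 ± 2.45 in Usp22-KOB. For Xbp1 they were Gmds, an enzyme of GDP-fucose synthesis (0.976), the neutrophil chemokine gene Cxcl5 (0.974) and Dmbt1, a secreted mucosal scavenger protein (0.970). Dmbt1 stood at 2040 ± 168, 1610 ± 210 and 359 ± 38.0 TPM, and Gmds at 106 ± 2.74, 87.0 ± 7.63 and 28.3 ± 2.19 TPM, in the same order. The 3 genes like Xbp1 had their lowest level in Usp22-KOB, as Xbp1 did, which follows from picking them by correlation. A correlation does not compare the size of a change, and mean Xbp1 was 172 TPM in WT and 130 TPM in Usp22-KOB. The 9 points fall into 3 groups of samples, so these correlations largely describe the order of the groups.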

How the data were processed

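Each sample had 1 column of TPM per gene in the table that the authors deposited, and no column was unused. The submitters' processing notes name Salmon, DESeq2 and mm10, without roles or versions, and the annotation used is not stated there. On log2(TPM + 1), the 13843 genes averaging 1 TPM or more were fitted in limma (version 3.58.1, R 4.3.3, intensity trend) with 1 mean per group over all 9 samples. The p-values were adjusted by Benjamini-Hochberg over these genes within each comparison, and a call is an adjusted p under 0.05. The scale understates changes of low genes.

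The members, the other lists and the naming rule were chosen with earlier results of these data known. The rule named, in each other list, up to 3 genes with the smallest adjusted p between the knockouts and up to 2 for both knockouts against WT, and some of these are not reported here. The fit was tested on simulated data. Alternatives changed the pseudocount, filter, scaling, fit and samples. Motif searches used Python 3.11.15.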

Additional observations from a re-analysis of the deposited data

Results flagged for a closer look

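For 5 of the 10 genes the level differed between the knockouts by a direct test (limma, Usp22-KOA minus Usp22-KOB, log2 scale): Hspa5 by 0.398, Hsp90b1 by 0.351, Xbp1 by 0.368, Pdia4 by 0.353 and Herpud1 by 0.324. Over all genes tested, 27.5% were called higher and 24.2% lower in this comparison. All 5 calls were higher and 0 were lower, so the higher share stood above that of all genes and the lower share below it. Without regard to direction, 7158 of the 13843 genes tested were called, which is close to 5 of 10. No test of the list as a whole was made. For Hspa5, Hsp90b1 and Pdia4 this goes with a rise over WT in Usp22-KOA, for Xbp1 with a fall below WT in Usp22-KOB, and for Herpud1 with rises of unequal size in both. All 3 samples of Usp22-KOA were above all 3 of Usp22-KOB for each of the 5, as for 31.3% of all genes tested.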

How the results depend on the processing

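Of 800 recomputed differences of single members, 763 kept their direction and their side of the threshold, 18 lost the call, 19 gained one and 0 called values turned in sign. The calls of Hspa5, Hsp90b1, Pdia4, Sdf2l1, Herpud1 and Dnajb9 in Usp22-KOA, of Sdf2l1, Herpud1 and Xbp1 in Usp22-KOB, and of the 5 genes between the knockouts held in each alternative run. Members called lower in Usp22-KOA went from 1 to 2 with quantile normalization, and in Usp22-KOB from 1 to 2 with quantile normalization or rescaling without Mir6236 and to 3 with array weights. Between the knockouts, 1 was called lower, from 0, with quantile normalization or rescaling without Mir6236. For both knockouts against WT, 5 rather than 3 were higher with array weights. With quantile normalization or rescaling without Mir6236, 2 were higher and 3 lower there, which turns the balance of 3 to 2. The lower count there went from 2 to 1 with the replicate number as a block (replicate block) and to 0 with the 6 knockout samples as 1 group, where 2946 rather than 6920 genes were called in all. Leaving out 1 sample gave 5 to 6 higher and 1 lower in Usp22-KOA, 2 higher and 1 to 2 lower in Usp22-KOB, 2 to 5 higher and 1 to 2 lower for both, and 5 to 6 higher and 0 to 1 lower between the knockouts. Over all genes, it gave 6967 to 8211, 3725 to 5607, 5581 to 7384 and 5920 to 7395 calls in the same order. The labels give same-numbered samples no link beyond the number, and whether they share more is not known. Their deviations from the group means correlated at -0.125 to 0.276, above 0.1 in 2 of 9 pairs. Those 2 were pairs of Usp22-KOA with Usp22-KOB (r = 0.187 and 0.276). With the replicate block the calls of Pdia4 and Dnajb9 for both knockouts against WT ended (limma adjusted p = 0.0737 and 0.0611). The block also left 4 rather than 7 higher calls among the genes of ER-associated degradation in Usp22-KOB, and array weights gave 4 rather than 1 lower calls there. The unknown depth limits what can be said of low genes, and the cause of these changes was not tested.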
